A study of Mus musculus with 6 samples.

Results

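The mucin and trefoil factor genes were examined in epithelial cells of the bile ducts (biliary epithelial cells) isolated from mouse liver. The 9 genes were taken by symbol from the deposited table of 25302 rows, and all 9 had a row: the mucins Muc1, Muc4, Muc5b, Muc6, Muc13 and Muc20 and the trefoil factors Tff1, Tff2 and Tff3. RNA was sequenced in 3 Control samples of genotype Sox9fl/fl and in 3 Sox9cKO samples of genotype Sox9fl/fl:AlbCre+/-. Both groups thus carry floxed alleles of Sox9, the gene of a transcription factor of the biliary lineage, and only the Sox9cKO group carries AlbCre, a Cre recombinase driven by the albumin promoter, which is active in hepatocytes and in the embryonic precursors that hepatocytes and biliary cells share. No treatment is named, and the age of the mice is not given in the sources used here. The question was which of these genes differ in level between the genotypes.

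Mucins are large, heavily O-glycosylated glycoproteins of epithelial surfaces. Some, such as Muc1, Muc4, Muc13 and Muc20, are anchored in the apical membrane and can modulate receptor signalling there, whereas others, such as Muc5b and Muc6, are secreted and polymerise into a gel. Trefoil factors are small secreted peptides held together by disulfide bonds between conserved cysteines, and they are stored and released together with gel-forming mucins. In the biliary tree, gel-forming mucins and trefoil factors are best known from large ducts and peribiliary glands, and membrane-bound mucins from the apical surface of duct cells.

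The coding sequences of the trefoil factors are shown because Tff2 was the member with the clearest difference and differs in build from its relatives. They were taken from GENCODE M21 on GRCm38, have the cysteine codons in capitals, and run from start to stop codon for Tff1 and Tff3 and from codon 29 to codon 127, the first and the last cysteine codon, for Tff2.
Tff1: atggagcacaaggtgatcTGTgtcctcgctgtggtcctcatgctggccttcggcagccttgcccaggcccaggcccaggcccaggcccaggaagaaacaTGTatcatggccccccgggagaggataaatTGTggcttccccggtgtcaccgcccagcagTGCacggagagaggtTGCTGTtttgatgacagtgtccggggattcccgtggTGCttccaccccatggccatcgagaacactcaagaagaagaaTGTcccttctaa
Tff2: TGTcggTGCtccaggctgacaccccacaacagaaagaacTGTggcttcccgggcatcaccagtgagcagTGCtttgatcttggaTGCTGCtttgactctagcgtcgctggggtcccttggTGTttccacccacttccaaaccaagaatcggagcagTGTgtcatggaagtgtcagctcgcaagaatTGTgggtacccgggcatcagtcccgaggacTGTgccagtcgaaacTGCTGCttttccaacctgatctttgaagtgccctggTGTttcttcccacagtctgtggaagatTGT
Tff3: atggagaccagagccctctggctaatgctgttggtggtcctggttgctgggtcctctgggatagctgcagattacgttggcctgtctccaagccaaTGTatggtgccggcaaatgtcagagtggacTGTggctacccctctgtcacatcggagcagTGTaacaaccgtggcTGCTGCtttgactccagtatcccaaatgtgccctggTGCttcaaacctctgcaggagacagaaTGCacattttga
The Tff2 reading frame had 129 codons before the stop, of which 14 were cysteine codons. Tff1 had 87 codons with 8 cysteines, and Tff3 had 81 codons with 7. Tff2 is known to carry a pair of trefoil domains, and the other trefoil factors carry a single one. In the capitals, adjacent cysteine codons stood at positions 57 and 58 and again at 106 and 107 in Tff2, against a single adjacent pair at 59 and 60 in Tff1 and at 58 and 59 in Tff3.

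The libraries held between 11883496 and 16191990 reads assigned to genes, and all values below are normalized counts (reads after division by the sample's size factor). Sox9 lay between 6043 and 6293 in the Control samples and between 3165 and 3363 in the Sox9cKO samples, so every library followed its label, with about 53.2% of the Control mean remaining. Which part of Sox9 the floxed alleles flank is not given in the sources used here. All 10 biliary markers examined were measured, including Epcam (5501 to 8249 over the 6 samples) and Krt19 (11480 to 26648). Several marker sums of other cell types differed between the groups without overlap. Each of these sums overlapped once the gene whose group means differed most was left out. That gene was picked from these same values, so the overlap without it is a description and no test. The summed level of 10 hepatocyte markers was 25033 to 38817 in Control and 48836 to 79772 in Sox9cKO. Without Apob, whose mean was 2712 in Control and 22111 in Sox9cKO, the sums overlapped (22792 to 35505 and 31653 to 47208). Of the 10 hepatocyte markers, 3 were called higher (Apob, Serpina1c and Tat) and none lower, beside 2.03% and 0.939% of all tested genes. The groups did not overlap for 4 that were higher (the same 3 and Hnf4a) and 1 that was lower (Asgr1). Among all tested genes these shares were 13.4% and 10.8%. The log2 fold change was positive for 7 and negative for 3 of the markers, with a median of 0.61. Alb overlapped between the groups. The summed level of 9 mesothelial and mesenchymal markers was 826 to 1279 in Control and 1475 to 3716 in Sox9cKO. Without Msln it overlapped (462 to 911 and 560 to 1976). Msln was called higher (log2 difference 2.01, limma adjusted p 0.0159). Of the other mesothelial markers, Wt1 was higher in every Sox9cKO sample (19.3 to 30.0 in Control, 34.0 to 60.7 in Sox9cKO). Upk3b was lower in every Sox9cKO sample (65.0 to 80.7 in Control, 35.9 to 44.8 in Sox9cKO). Neither Wt1 nor Upk3b was called (limma, adjusted p 0.292 and 0.110). For 7 measured leukocyte and Kupffer cell markers the sum was 1022 to 1110 and 1497 to 1800, and without Csf1r 225 to 339 and 162 to 232. Ptprc, the pan-leukocyte gene, was 19.6 to 37.0 and 1.13 to 16.9. The sum of 8 endothelial markers varied within both groups. In replicates 1 to 3 it was 10065, 31814 and 1357 in Control and 24786, 32317 and 5102 in Sox9cKO. Replicate 2 was highest and replicate 3 lowest in both groups, and Sox9cKO was higher within each replicate number. All 8 markers had a positive log2 fold change (median 1.04), and none was called. For the 5 measured of 10 gastric and intestinal markers the sum was 518 to 575 and 653 to 1392, most of it from Vil1. Without Vil1 it was 56.6 to 100.9 and 87.9 to 167. Cdh17, an intestinal cadherin, was the called gene of this list, at 9.25, 12.1 and 4.61 in Control and 38.8, 55.8 and 56.6 in Sox9cKO (log2 difference 2.48, limma adjusted p 0.0235), so it was higher in every Sox9cKO sample, as Tff2 was. Of the gastric genes of this list, Cblif was at most 7.42 in any sample. Pgc was 28.8 to 75.7 in Control and 18.9 to 119 in Sox9cKO, with overlap. The part of these other cells in the results on mucins and trefoil factors was not tested. In bulk RNA, a change in the number of cells of a type and a change in RNA per cell cannot be told apart.

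Among the 9 genes, Tff2 and Muc20 rose in Sox9cKO, and none of the others passed the test. A test was made for 7 of them, those with a mean of at least 10 normalized counts over the 6 samples, using limma on log2(normalized count + 1) with Benjamini-Hochberg adjustment over all 17153 genes tested and a threshold of 0.05. The 2 called members compare with 2.97% of all tested genes called in either direction and 2.03% called higher. No member was called lower, at a background of 0.939%. An unadjusted p under 0.05 in limma was found for 3 members (Tff2, Muc20 and Tff3), all higher, against 17.8% of all tested genes. The filter shaped this count and its direction. Tff3 passed it only through its Sox9cKO samples (mean 16.5, against 3.52 in Control). Muc5b, which was lower in Sox9cKO, fell just under it, with an unadjusted p of 0.0080 in limma without the filter. edgeR's quasi-likelihood test and DESeq2, on the recovered reads, called the same 2 members, at backgrounds of 2.86% and 7.08% of genes. When the replicate number was added as a block, limma called Tff2 and Muc20, at a background of 8.05% of genes called. The labels do not say that the samples of a group came from separate animals, so the p-values measure the spread between these samples, which may be technical.

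**Figure D1:**
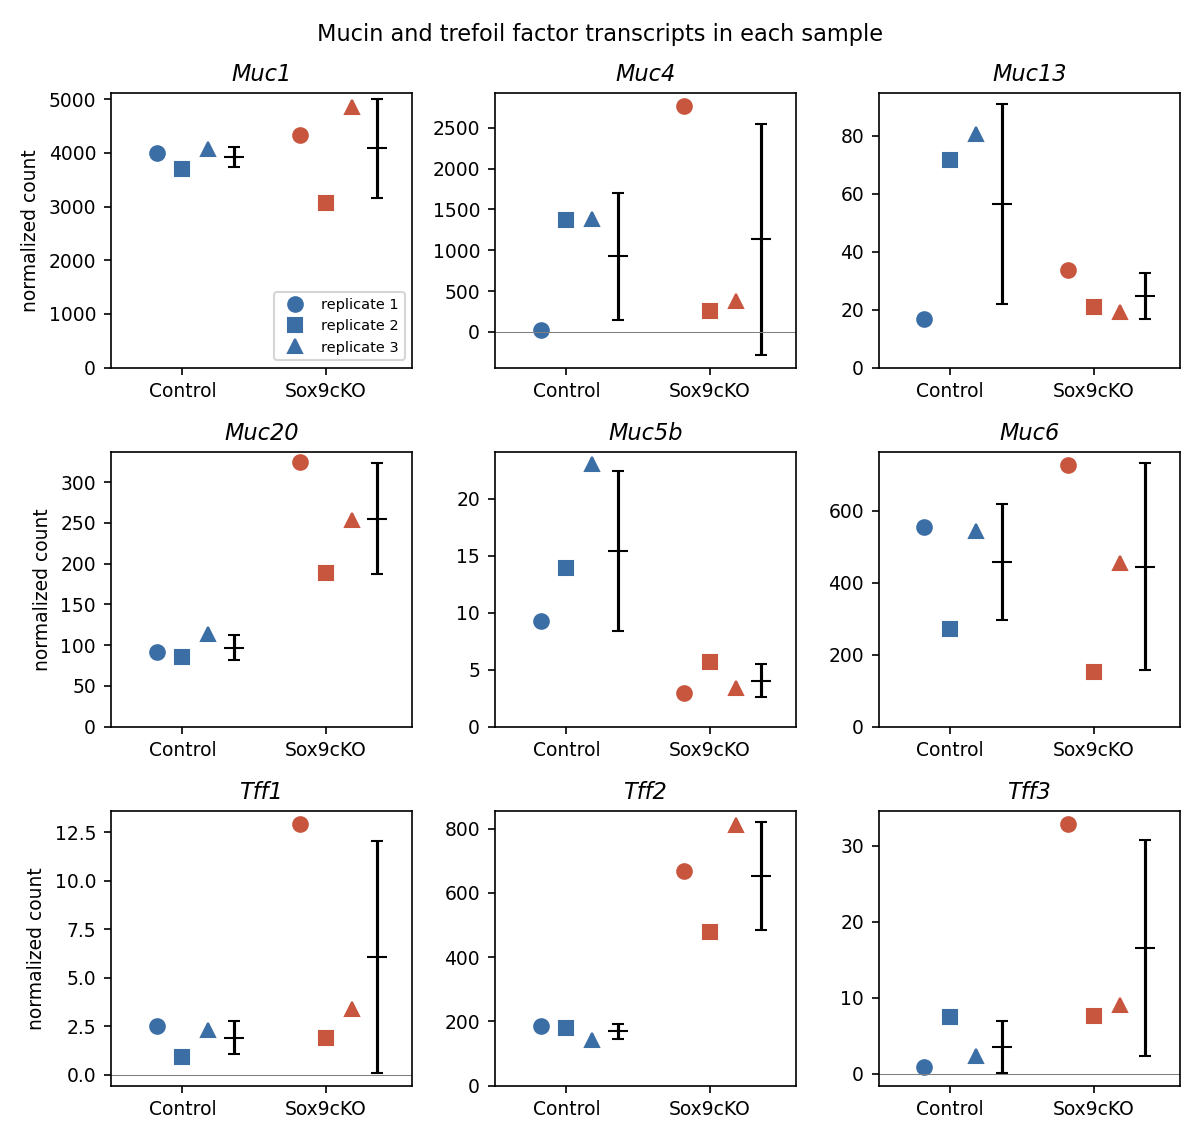
Normalized counts (vertical axis, linear, a separate scale for each gene) of the 9 genes in 3 Control (blue) and 3 Sox9cKO (red) samples, with the replicate number given by the symbol and the mean ± SD of each group in black. Tff2 and Muc20 do not overlap between the groups and are higher in Sox9cKO, whereas Muc4 ranges from 27.7 to 2767.

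Tff2 encodes the trefoil peptide known from gastric mucous neck cells and Brunner's glands. Its normalized counts were 186, 180 and 142 in the Control group and 668, 477 and 811 in the Sox9cKO group, in each case in the order of replicates 1 to 3, as in all lists below. The lowest Sox9cKO sample was thus above the highest Control sample by a wide margin, and the Control samples lay close together. The means were 169 ± 24.0 in Control and 652 ± 167 in Sox9cKO (SD, n = 3), a ratio of 3.85. On the log2 scale the difference was 1.92 ± 0.22 (standard error), with a 95% interval from 1.39 to 2.44 (limma, adjusted p 0.00679), which placed Tff2 at rank 117 by p-value among the tested genes. Within the replicate numbers that the labels give, the ratio of Sox9cKO to Control was 3.59, 2.65 and 5.72. The call held in every fit that left out 1 sample, with adjusted p-values from limma between 0.0103 and 0.0337.

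Tff3 and Tff1, the trefoil peptides of intestinal goblet cells and of gastric surface mucous cells, were near the limit of detection. Tff3 had 1, 8 and 2 reads in Control against 33, 8 and 8 reads in Sox9cKO. As normalized counts these were 0.841, 7.42 and 2.30 against 32.8, 7.56 and 9.06, so the groups did not overlap, but Control replicate 2 and Sox9cKO replicate 2 were almost equal. Its log2 difference of 1.94 ± 0.77 (standard error) did not pass (limma, adjusted p 0.249). Its mean of 10.003 was just above the filter, and it fell below it when Sox9cKO replicate 1 was left out. Tff1 had 3, 1 and 2 reads in Control and 13, 2 and 3 in Sox9cKO, and was not tested. Its groups overlapped, and only Sox9cKO replicate 1 was above 3.40 normalized counts. Exons of the antisense gene Gm15318 cover 31.4% of the Tff1 exon bases in GENCODE M21, and Gm15318 was higher than Tff1 in every sample (15.8 to 23.5 in Control, 34.8 to 40.8 in Sox9cKO). Whether counting used the strand is not given in the sources used here, so the reads of this pair may not be separated. Tff2 made up between 93.1% and 98.4% of the trefoil factor level per kilobase of transcript in each of the 6 samples.

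**Figure D2:**
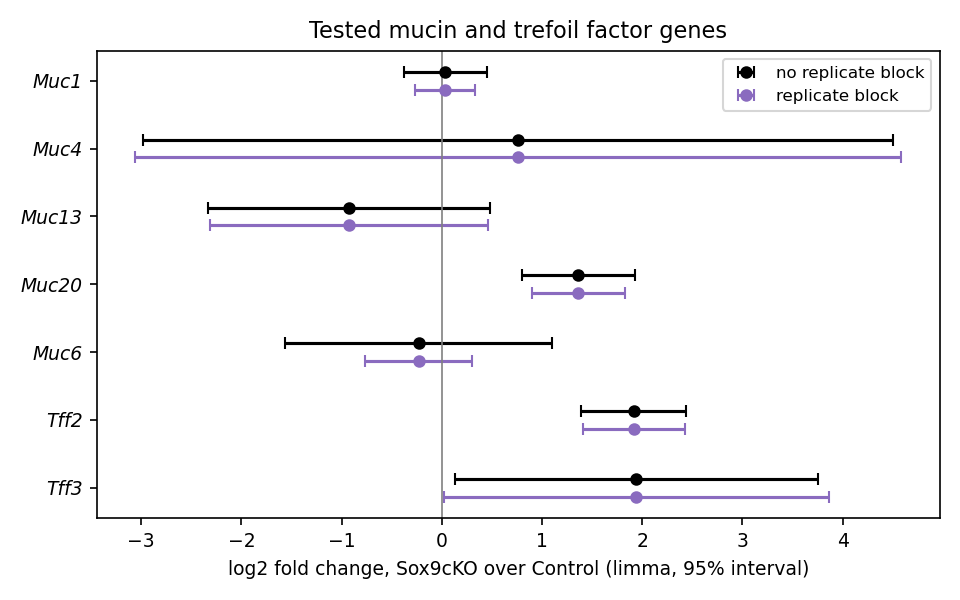
Log2 fold changes (horizontal axis, Sox9cKO over Control, on the log2(normalized count + 1) scale) of the 7 tested genes from limma, without (black) and with (purple) the replicate block, with 95% intervals. The intervals of Tff2 and Muc20 lie well above 0, that of Muc1 is narrow and spans 0, and that of Muc4 reaches from -2.98 to 4.51.

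Muc20 encodes a membrane mucin that is known to bind the hepatocyte growth factor receptor Met and to dampen part of its signalling. Its normalized counts were 91.6, 85.4 and 114 in the Control samples and 324, 188 and 254 in the Sox9cKO samples. All Sox9cKO samples were above all Control samples. The means were 97.0 ± 15.1 and 255 ± 68.2 (SD, n = 3), a ratio of 2.63. This is a log2 difference of 1.36 ± 0.24 (standard error), with a 95% interval from 0.80 to 1.92 (limma, adjusted p 0.0310). The ratio within replicate numbers was 3.54, 2.20 and 2.22. The call was lost in 5 of the 6 fits that left out 1 sample. The adjusted p from limma was 0.134, 0.0793 and 0.0701 without Control replicate 1, 2 or 3, 0.0712 without Sox9cKO replicate 1 and 0.0918 without Sox9cKO replicate 3, with log2 fold changes between 1.17 and 1.56 over all 6 fits. Without the intensity trend the adjusted p was 0.0539. The receptor gene Met, picked here with its values known, did not pass (log2 difference 0.44, limma adjusted p 0.443).

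The promoter of Muc20 is shown as that of the called member for which RefSeq's table held a window. It runs from 250 bases before the annotated start to 50 bases after it on the minus strand of GRCm38.p6, at chr16:32797386-32797685, with a match to the FOXA motif TGTTTAC in capitals, read here on the opposite strand.
Muc20 promoter: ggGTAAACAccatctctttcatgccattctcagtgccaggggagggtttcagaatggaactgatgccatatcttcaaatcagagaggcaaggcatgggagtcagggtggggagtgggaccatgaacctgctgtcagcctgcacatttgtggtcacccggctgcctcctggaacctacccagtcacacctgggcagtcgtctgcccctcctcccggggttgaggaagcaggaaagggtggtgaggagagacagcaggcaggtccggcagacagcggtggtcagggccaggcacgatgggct
The match lies 248 bases before the start. TGTTTAC was present on either strand in 3.65% of all 32851 promoter windows. The SOX motifs ACAATG and ACAAAG, found in 12.6% and 18.7% of all windows, were searched on both strands as well, and neither stood in the windows of Muc1, Muc4, Muc6, Muc13 or Muc20. These are matches of letters only.

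Muc20 and its neighbour Muc4 overlap at their ends on opposite strands. In GENCODE M21 they shared 627 exon bases, which is 15.6% of the exon bases of Muc20 and 5.33% of those of Muc4. The library kit is a stranded one per the labels, but the strand setting of the counting is not given in the sources used here. Muc20 was nearly equal in Control replicates 1 and 2 (91.6 and 85.4), where Muc4 was 27.7 and 1364, whereas in Sox9cKO the highest and the lowest Muc20 (324 and 188) stood in the samples with the highest and the lowest Muc4 (2767 and 256). Pearson's r between them was 0.34 over the 6 samples and 0.52 after the group means were removed. The part of shared reads in the Muc20 result was not tested.

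Muc1, the most abundant of the 9 genes, encodes the membrane mucin of the apical surface of most glandular epithelia. Its normalized counts were 3988, 3705 and 4065 in Control and 4339, 3068 and 4854 in Sox9cKO. The groups overlapped, with Sox9cKO replicate 2 lowest and Sox9cKO replicate 3 highest of all samples. The means were 3919 ± 189 and 4087 ± 920 (SD, n = 3). The log2 fold change was 0.035 with a 95% interval from -0.38 to 0.45 (limma, adjusted p 0.948), and its sign depended on the setting. Muc1 contributed between 84.9% and 98.2% of the summed level per kilobase of the membrane mucins Muc1, Muc4, Muc13 and Muc20 in each sample.

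Muc4, a membrane mucin known as an intramembrane ligand of the receptor Erbb2, varied most. Its normalized counts were 27.7, 1364 and 1379 in Control and 2767, 256 and 372 in Sox9cKO. Control replicate 1 was far below the other Control samples and Sox9cKO replicate 1 far above the other Sox9cKO samples, so that the highest and the lowest value carried the same replicate number and differed 99.7-fold. Its log2 difference was 0.77 ± 1.59 (standard error; limma, adjusted p 0.853). It became -1.09 without Control replicate 1 and -0.29 without Sox9cKO replicate 1, so these data fix no direction for Muc4.

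Muc13, a membrane mucin of gastrointestinal epithelium, had normalized counts of 16.8, 71.5 and 80.6 in Control and 33.8, 20.8 and 19.2 in Sox9cKO. A pair of Control samples was high, and Control replicate 1 was below every Sox9cKO sample. The log2 difference of -0.93 ± 0.60 (standard error) did not pass the test (limma, adjusted p 0.485). It reached -1.63 without Control replicate 1, again without a call (adjusted p 0.136).

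Of the gel-forming mucins, Muc6, which is known from mucous glands of stomach, pancreas and biliary tree, was the more abundant. Its normalized counts were 555, 270 and 543 in Control and 727, 152 and 454 in Sox9cKO. Replicate 2 was the lowest in both groups, and the groups overlapped. The means were 456 ± 161 and 444 ± 288 (SD, n = 3), with a log2 fold change of -0.23 and a 95% interval from -1.56 to 1.10 (limma, adjusted p 0.880). With the replicate block the interval narrowed to -0.77 to 0.30 (limma, adjusted p 0.564). Muc5b, a major gel-forming mucin of airway mucus, was rare. It had 11, 15 and 20 reads in Control and 3, 6 and 3 in Sox9cKO, or 9.25, 13.9 and 23.0 against 2.98, 5.67 and 3.40 normalized counts. All Sox9cKO samples were below all Control samples, but the mean of 9.71 left Muc5b under the filter and untested. In limma without the filter its log2 fold change was -1.66 (adjusted p 0.129). In all, 4 of the 9 genes had groups that did not overlap (Tff2, Muc20 and Tff3 higher, Muc5b lower). Of these, Muc5b was not tested, and Tff3 was separated only by 7.42 in Control replicate 2 against 7.56 in Sox9cKO replicate 2. Among all tested genes, which leave out Muc5b, the groups did not overlap for 24.2%, 13.4% higher and 10.8% lower.

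Per kilobase of the longest coding transcript in GENCODE M21, the order of levels in Control was Muc1 (1748 normalized counts per kilobase), Tff2 (290), Muc4 (81.9), Muc6 (52.1), Muc20 (26.4), Muc13 (19.0), Tff3 (7.15), Tff1 (2.73) and Muc5b (1.03). Muc1 and Tff2 stood clear of each other and of all below them in every Control sample. From Muc4 down, neighbours overlapped: Muc4 ranged from 2.46 to 122 per kilobase, Muc6 from 30.8 to 63.4, Muc20 from 23.2 to 31.1 and Muc13 from 5.66 to 27.2. In Sox9cKO the means per kilobase were 1823 for Muc1, 1116 for Tff2, 100.4 for Muc4, 69.5 for Muc20, 50.8 for Muc6, 33.4 for Tff3, 8.64 for Tff1, 8.29 for Muc13 and 0.268 for Muc5b. The ranges of Muc1 (1368 to 2165) and Tff2 (817 to 1388) overlapped there. Lengths of Muc4 and Muc6 were matched by symbol and those of the other 7 genes by identifier.

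The closest profile to that of Tff2 over the 6 samples, by Pearson's correlation of log2(normalized count + 1), belonged to Slc17a4, a phosphate transporter family gene. Its normalized counts were 41.2, 41.8 and 33.4 in Control and 164, 121 and 222 in Sox9cKO (r = 0.999). It was also called higher, at a log2 difference of 2.06 (limma, adjusted p 0.00969). Nek5 (r = 0.996), which was not called (adjusted p 0.109), and Nceh1 (r = 0.995), which was called (log2 fold change 1.01, limma adjusted p 0.0108), followed. For Muc1 the closest profiles were those of Sec61g (r = 0.978), Cask (0.966) and Nr1i2 (0.965), none of which was called. These are the highest correlations among all tested genes, over 6 samples from the same libraries, and describe likeness only.

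**Figure D3:**
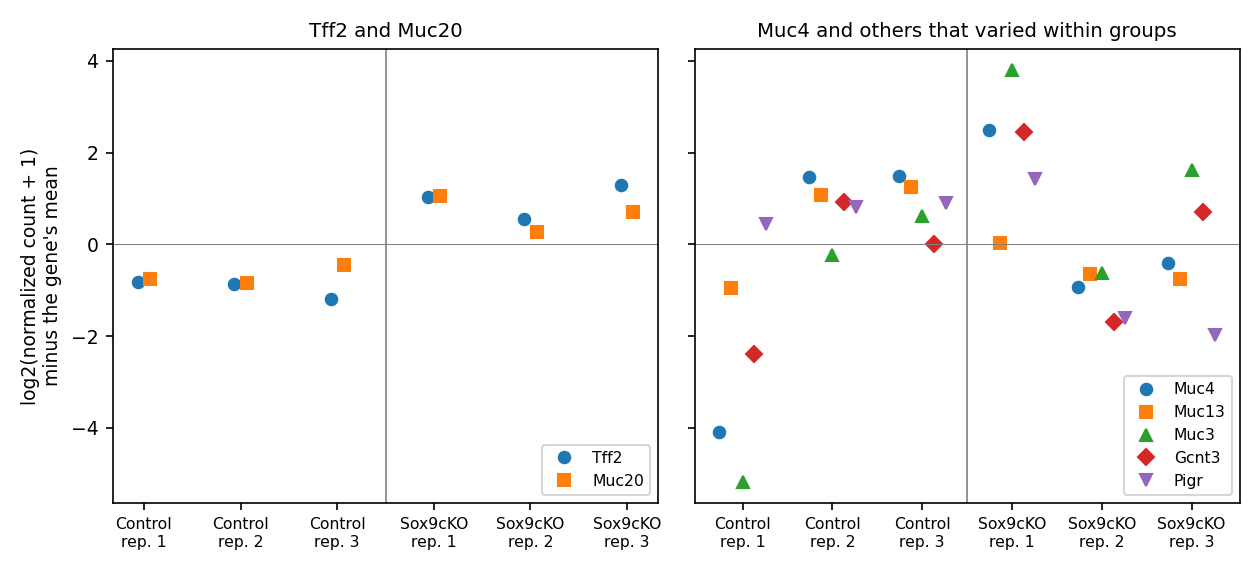
Values of log2(normalized count + 1) minus the gene's own mean (vertical axis) in each sample, for Tff2 and Muc20 (left) and for Muc4, Muc13, Muc3, Gcnt3 and Pigr (right, chosen after their values were seen). On the left every Sox9cKO point lies above every Control point, and on the right the spread within a group is as large as that between groups.

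Among 18 other mucin and mucin-like genes, 12 were measured and 10 tested, and none was called by limma, with or without the block, or by edgeR or DESeq2. At an unadjusted p under 0.05 in limma there was 1 gene, Muc5ac, which was lower, beside 17.8% of all tested genes. Their median log2 fold change was 0.26, beside 0.036 over all tested genes. By the mean over all 6 samples the most abundant were Cd164, a sialomucin, and Muc3, an intestinal membrane mucin. The mean of Muc3 was carried by Sox9cKO replicate 1, and in Control its mean of 102 was below those of Mcam (265) and Muc2 (112). Cd164 was 2930 to 3245 in Control and 3178 to 4262 in Sox9cKO (log2 fold change 0.23, limma adjusted p 0.432). Muc3 was scattered within both groups, like Muc4, with 2.52, 109 and 195 in Control and 1794, 82.2 and 394 in Sox9cKO (log2 fold change 3.20 ± 1.65 as standard error, limma adjusted p 0.372). Muc5ac, a gel-forming gastric mucin named after its values were seen, was 12.7 to 18.6 in Control and 4.53 to 7.56 in Sox9cKO, without overlap (log2 fold change -1.17, limma adjusted p 0.178). Without Sox9cKO replicate 3, 1 gene of the list was called lower, which is not named here and need not be Muc5ac. Mucl3, also named after its values were seen, was 34.5, 28.8 and 39.2 in Control and 5.97, 5.67 and 41.9 in Sox9cKO (log2 fold change -1.47, limma adjusted p 0.347). Assignment of reads between Muc3 and Muc3a is uncertain.

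The enzymes of mucin-type O-glycosylation build the sugar chains of these proteins, and 23 of 26 listed genes were tested. Of these, 2 were called higher and none lower, beside 2.03% and 0.939% of all tested genes, with a median log2 fold change of 0.29. At an unadjusted p under 0.05 in limma there were 9, of which 7 were higher and 2 lower, beside 17.8% of all tested genes. St3gal1, which caps the core disaccharide with sialic acid, rose from 1346, 1881 and 1688 to 3132, 4515 and 4482, with a log2 difference of 1.30 ± 0.19 (standard error; limma, adjusted p 0.0157). Gcnt4, which adds a branch to that core, rose from 75.7, 52.9 and 49.5 to 132, 223 and 208, with a log2 difference of 1.63 ± 0.28 (standard error; limma, adjusted p 0.0268). Both had groups without overlap. Leaving out 1 sample ended the call of St3gal1 in 4 fits and that of Gcnt4 in 5 fits, with adjusted p-values up to 0.0725 and 0.0999. Galnt7, a transferase that adds GalNAc to peptides already carrying it, passed only with the block or sample weights (log2 difference 0.73; adjusted p from limma 0.137 without and 0.0476 with it).

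Of 27 listed transcription factors of mucous cells and genes for folding, packing and release of mucins, 20 were tested. limma and edgeR called none, DESeq2 called 1 (Fcgbp), and 4 of the 20 had an unadjusted p under 0.05 in limma, all higher, a share close to the 17.8% of all tested genes. The median log2 fold change was 0.22. Fcgbp, an IgG Fc binding protein found in mucus and linked to mucin gels, was 487, 962 and 948 in Control and 4094, 1605 and 3783 in Sox9cKO. Its groups did not overlap, and its log2 fold change of 1.93 missed the threshold without the block and passed with it (adjusted p from limma 0.0587 and 0.0306). It also passed without the filter on low values (limma, adjusted p 0.0496) and without Sox9cKO replicate 2 (log2 fold change 2.37, adjusted p 0.0239). Marcks, which takes part in mucin granule release, passed with the block alone (log2 difference 0.52; adjusted p from limma 0.250 without and 0.0369 with it). Named after their values were seen, the goblet cell regulator Spdef was 10.1 to 41.8 in Control and 15.8 to 21.7 in Sox9cKO, and Agr2, which is needed for mucin folding, was at most 20.9 in any sample.

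Of 19 listed receptors, partners and sheddases, 15 were tested, with a median log2 fold change of 0.28. Of these, 3 were called higher and none lower, beside 2.03% and 0.939% of all tested genes. At an unadjusted p under 0.05 in limma there were 7, all higher, beside 17.8% of all tested genes. Without Sox9cKO replicate 1, 2 genes of the list were called higher and 1 lower. Lgals3, a lectin that binds mucin glycans, rose from 580, 631 and 730 to 2530, 1252 and 1623 (log2 fold change 1.42, limma adjusted p 0.0315). The receptor gene Egfr rose from 1371, 1612 and 2159 to 2902, 4978 and 5399 (1.34, adjusted p 0.0485). Mmp14, a membrane protease that can shed Muc1, rose from 1443, 1350 and 1005 to 2424, 2125 and 2033 (0.81, adjusted p 0.0495). None of these calls held in all fits that left out 1 sample. Lgals3 lost its call in 4 of them (adjusted p up to 0.142) and without the intensity trend (0.0711), Egfr in 5 (up to 0.186) and Mmp14 in all 6 (up to 0.127), and both of the latter failed under further settings. Egfr was lost with a pseudocount of 0.1 (0.0507), a minimum mean of 50 (0.0507), quantile normalization (0.0513), no intensity trend (0.0945) and edgeR (0.0568). Mmp14 was lost with a pseudocount of 0.1 (0.0516), quantile normalization (0.0663), no intensity trend (0.105) and edgeR (0.0567). The sheddase gene Adam10 passed with the block (log2 difference 0.52; adjusted p from limma 0.0631 without and 0.0244 with it). Also named after their values were seen, Erbb2, the partner of Muc4, differed by 0.24 on the log2 scale and did not pass (limma, adjusted p 0.489), and Cxcr4, a receptor at which Tff2 has been reported to signal, was at most 18.6 in any sample.

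**Figure D4:**
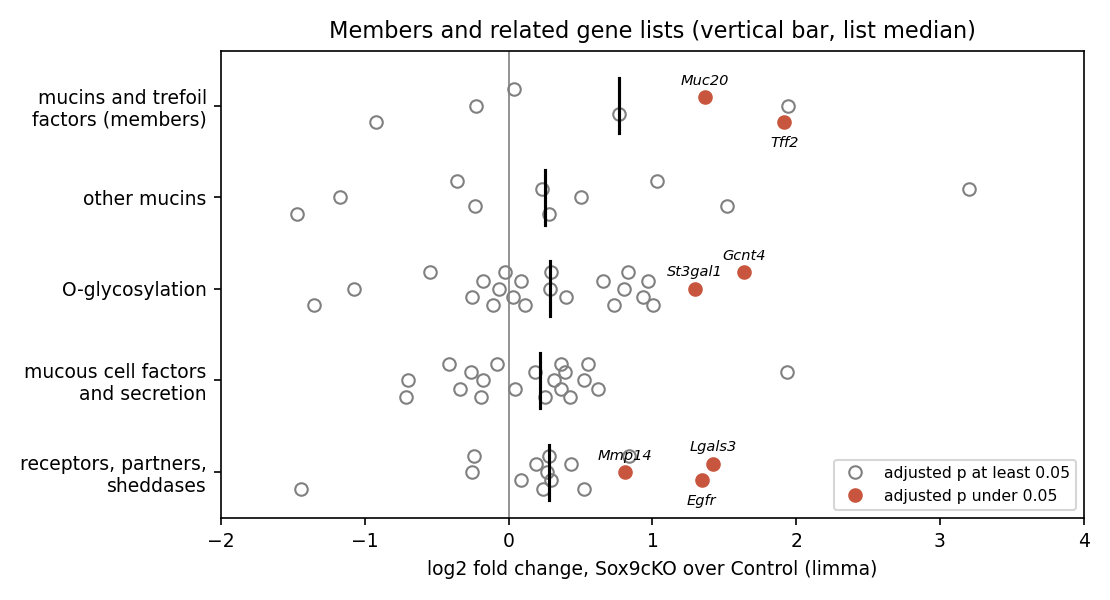
Log2 fold changes (horizontal axis, Sox9cKO over Control, limma) of the tested members and of the tested genes of the 4 related lists. Filled red points passed an adjusted p of 0.05, and open grey points did not. The vertical bars are the medians, which run from 0.22 to 0.29 for the lists and are 0.77 for the 7 tested members. The member median is the value of Muc4 itself, with a standard error of 1.59, and these data fix no direction for Muc4. The member median is therefore no measure of a shared shift of the members.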

How the data were processed

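Total RNA of 3 Control and 3 Sox9cKO samples was made into stranded libraries after removal of ribosomal RNA, per the labels' protocols. The authors deposited 1 table of normalized counts, a signal made of gene counts scaled by 1 size factor per sample. The submitters' processing notes name DESeq2 1.36.0 and GRCm39. The aligner, the annotation and the use of molecular identifiers are not given in the sources used here. All values came out as whole reads within 0.001 reads, and these recovered reads were used for edgeR 4.0.16 and DESeq2 1.42.0 as alternatives.

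The main test was limma 3.58.1 (R 4.3.3) with an intensity trend on log2(normalized count + 1), for genes with a mean of at least 10, two-sided, with Benjamini-Hochberg adjustment over all tested genes and a threshold of 0.05. Fold changes on this scale understate the change of low genes. The procedure was also run on simulated counts with the same dispersion for every gene and no effect of the replicate number. The data here differ in both, so that run does not measure the error rate of these results. Replicate numbers come from the sample titles. Deviations from the group means correlated at 0.207, 0.472 and 0.542 between samples of the same number, so the numbers were taken to pair the samples, and a fit with the replicate block was an alternative. The text names the 9 members, Sox9, the list genes called with or without the block or else the 2 most abundant of a list, the 3 closest profiles to Muc1 and Tff2, and neighbouring genes, and says where others were added after their values were seen. The members and the gene lists were chosen with earlier results of these data known. Sequences and transcript lengths are from GENCODE M21 (GRCm38) and the promoter from RefSeq (GRCm38.p6). Apart from this promoter window, no coordinates are given, since these builds differ from GRCm39.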

Additional observations from a re-analysis of the deposited data

How the results depend on the processing

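Tff2 and Sox9 kept their direction and call under all 18 alternatives. The members called were 2 under all other settings but 1 without the intensity trend, and ranged from 1 to 2 when 1 sample was left out. With the replicate block no call among the members changed, and 1381 genes were called over the table (868 higher, 513 lower) in place of 510. Calls numbered 1043 with sample weights (of which 631 were higher and 412 lower), 1214 by DESeq2 (721 up, 493 down) and 1160 when edgeR had the replicate block (664 up, 496 down). Leaving out 1 sample gave between 200 and 389 genes (153 to 275 higher, 47 to 114 lower), from fewer samples. The log2 fold change of Muc1 reversed to -0.048 with quantile normalization, -0.15 with sample weights and -0.0090 with edgeR and the replicate block, and ranged from -0.10 to 0.23 when 1 sample was left out. That of Muc4 reversed to -0.55 with edgeR and the replicate block and ranged from -1.09 to 1.70 when 1 sample was left out. That of Muc6 ranged from -0.72 to 0.41 when 1 sample was left out, turning positive without Sox9cKO replicate 2. The cause was not tested. DESeq2 gave no adjusted p for Muc4, and Muc13 and Tff3 fell under a minimum mean of 50. Depth limits Tff1, Tff3 and Muc5b, which had between 1 and 33 reads per sample.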

Other observations

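Of 22 other genes next to the members in the annotation 18 were tested, and limma called none of them, with 9 at an unadjusted p under 0.05, beside 17.8% of all tested genes. With the replicate block, under which 8.05% of all genes were called, it called 2, Ap2a2, a clathrin adaptor gene near Muc6 (log2 difference 0.56, adjusted p 0.0963 without and 0.0200 with the block), and Heg1, near Muc13 (0.79, adjusted p 0.222 and 0.0109). Beside Muc20 and Muc4, Tnk2, a kinase gene, was 346, 474 and 361 in Control and 962, 588 and 623 in Sox9cKO, without overlap (log2 fold change 0.86, limma adjusted p 0.105). Beside the trefoil factor genes, Abcg1, a sterol transporter gene, was 160, 343 and 53.0 in Control and 402, 416 and 160 in Sox9cKO, with overlap (log2 fold change 1.06, limma adjusted p 0.479).

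Chosen after their values were seen, Gcnt3, which branches mucin glycans, was 16.0, 167 and 87.6 in Control and 481, 26.5 and 143 in Sox9cKO, and Pigr, the receptor that carries IgA into bile, was 4068, 5297 and 5656 in Control and 8038, 979 and 768 in Sox9cKO. As for Muc4 and Muc13, Sox9cKO replicate 1 was the highest and Control replicate 1 the lowest sample of its group for both. Neither was called in the main fit (limma, adjusted p 0.724 and 0.413). Without Sox9cKO replicate 1, 1 gene of the list of receptors, partners and sheddases, which holds Pigr, was called lower. That gene is not named here. In the samples of that fit, Pigr was lower in both Sox9cKO samples (979 and 768) than in every Control sample.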
